A study of Macaca mulatta with 6 samples.

Results

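The BCL2 family was examined in luteal cells of the rhesus macaque through 10 genes: the pore formers BAX and BAK1, the BH3-only genes BIK, BBC3, PMAIP1 and BCL2L11, the pro-survival genes BCL2, BCL2L1 and MCL1, and APAF1. All probe sets that carry 1 of these symbols were taken, which gave 24 probe sets for 10 genes, out of 24956 probe sets for 14132 named genes on the array. The selection goes by gene symbol and uses no measured value, but the genes were chosen with earlier results of these data known. The groups were 3 cultures treated with 1 µM T0901317, a drug that activates the liver X receptors (nuclear receptors for oxidised cholesterol), and 3 cultures given 0.1% dimethyl sulfoxide (DMSO), the vehicle. All cultures held cells dispersed from the corpus luteum 12 days after the surge of luteinizing hormone, were kept on fibronectin in serum-free medium and were treated for 24 h from plating. The replicates are paired, per the series' design text. The p-values rest on the spread of the differences between these 3 pairs, pooled with that of other probe sets. Whether a pair shares an animal is not stated, so they are not read as a spread between animals.

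Proteins of the BCL2 family decide whether the outer membrane of the mitochondrion stays intact. BAX and BAK1 form pores in it, the pro-survival proteins hold them back, and BH3-only proteins bind the pro-survival proteins or activate the pore formers. Once pores open, cytochrome c leaves the mitochondrion and joins APAF1 in the apoptosome, which activates caspases. Apoptosis is one of the ways in which luteal cells are lost when the corpus luteum regresses. Much of the control in this family acts on the proteins, which the arrays did not measure, and the splice forms of BCL2L1, MCL1 and BCL2L11 were not told apart here.

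Values are log2 expression levels. The share of probe sets above a reference for dim signal, 4.63, ran from 69.3% to 74.1% in the T0901317 arrays and from 68.8% to 73.5% in the DMSO arrays. Levels had SDs of 1.99 and 2.00 over the probe sets of the replicate 3 arrays and 2.10 to 2.18 on the other arrays. As a measure of RNA quality, the level of 3' over 5' control probe sets (actin, GAPDH and EF1a, log2 difference) was 1.03, 0.70 and 1.31 with T0901317 in replicates 1, 2 and 3, against 0.85, 0.76 and 1.89 with DMSO. Of 8 listed steroidogenic markers 5 were measured, which here means that at least 1 probe set carried the gene's symbol alone. STAR, which carries cholesterol into mitochondria, lay at 10.70, 11.45 and 10.58 with T0901317 and at 10.97, 11.48 and 10.54 with DMSO. All measured markers of macrophages, pericytes and fibroblasts, and all of endothelium but KDR, were also above the dim reference on at least 1 array. In a mixture of cells fewer cells of a type and less RNA per cell cannot be told apart.

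None of the 10 genes passed the test for a change with T0901317. Of the 24 probe sets, 0 rose and 0 fell at a limma adjusted p under 0.05, and 0 had an unadjusted p under 0.05. Over all 52766 probe sets tested, 0.0606% rose and 0.0246% fell, or 0.0853% in all, and 3.72% had an unadjusted p under 0.05. The largest changes were -0.19 ± 0.12 on the log2 scale for a probe set of BCL2L11 and 0.17 ± 0.12 for one of BCL2L1 (limma's SE, n = 3 pairs; limma adjusted p = 1.00 for both). No probe set of the 10 genes had 3 T0901317 arrays that lay apart from the 3 DMSO arrays, while 2.45% of all probe sets did. In the same fit MYLIP, a known target of the liver X receptors, changed by 2.39 ± 0.11 (limma adjusted p = 4.9e-06). Across the 24 probe sets the 95% intervals of the change ran from -0.51 to 0.46, which are folds of 0.703 and 1.37. The intervals are not adjusted for the number of probe sets.

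Of the pore formers, BAX, which moves from the cytosol into the mitochondrial membrane, was read by 3 probe sets. Its representative, the one with the highest mean level (MmugDNA.6935.1.S1_s_at), had 8.98, 9.57 and 9.29 with T0901317 in replicates 1, 2 and 3, against 9.29, 9.59 and 9.27 with DMSO. The treated culture of replicate 1 was the lowest of the 6, and the groups overlapped. The change was -0.10 ± 0.09, with pair differences of -0.31, -0.01 and 0.02. Without replicate 1 it was 0.0035. The other probe sets of BAX had -0.11 ± 0.11 and 0.03 ± 0.11. BAK1, which sits in the membrane already, had 8.01, 8.51 and 8.11 with T0901317 and 8.17, 8.52 and 8.15 with DMSO. BAK1 was lower with T0901317 in 3 of 3 pairs, by small amounts that did not pass (-0.07 ± 0.09; 95% interval -0.28 to 0.14). Such a common sign in all pairs was seen for 3 of the 24 probe sets and for 23.2% of all probe sets.

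The BH3-only genes spanned flat and variable patterns. BBC3, which encodes PUMA, a binder of all the main pro-survival proteins, had 7.504, 7.62 and 7.58 with T0901317 and 7.60, 7.59 and 7.53 with DMSO. All 6 arrays of BBC3 lay within 0.12 of each other, and the change was -0.00064 ± 0.10. BIK, a BH3-only protein found mainly at the endoplasmic reticulum, had 5.14, 5.71 and 5.38 with T0901317 against 5.33, 5.44 and 5.59 with DMSO. Its pairs moved in opposite directions, by -0.20, 0.26 and -0.21, for a mean of -0.05 ± 0.14.

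PMAIP1 encodes NOXA, which binds chiefly to MCL1. Its representative (MmuSTS.1193.1.S1_at) had 10.09, 9.99 and 10.74 with T0901317 and 10.14, 9.72 and 11.13 with DMSO, a change of -0.06 ± 0.11. Replicate 3 was the highest in both groups. The pairs differed by -0.05, 0.27 and -0.39, so the sign rested on the replicates used: without replicate 3 the change was 0.11. The second probe set of PMAIP1 had 8.49, 9.30 and 9.57 with T0901317 and 9.07, 9.27 and 9.42 with DMSO. There the treated culture of replicate 1 stood lowest, and the pair differences were -0.58, 0.03 and 0.15, for a mean of -0.13 ± 0.13. Without replicate 1 the change was 0.09. The probe sets of PMAIP1 thus had their largest differences in different pairs.

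BCL2L11 encodes BIM, a BH3-only protein that binds all the main pro-survival proteins, and was read by 6 probe sets. Its representative (MmugDNA.43021.1.S1_at) had 8.75, 9.03 and 8.88 with T0901317 against 8.93, 9.02 and 8.91 with DMSO, a change of -0.07 ± 0.09. The 6 changes ran from -0.19 to 0.01, and 5 lay below 0. The lowest, -0.19 ± 0.12, was below 0 in all pairs (-0.21, -0.02 and -0.33). The dimmest probe set of BCL2L11, with means of 4.74 with T0901317 and 4.84 with DMSO, had pair differences of -0.70, -0.04 and 0.45. This was the widest spread between pairs among the 6 probe sets of BCL2L11, in the one with the lowest signal.

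**Figure D1:**
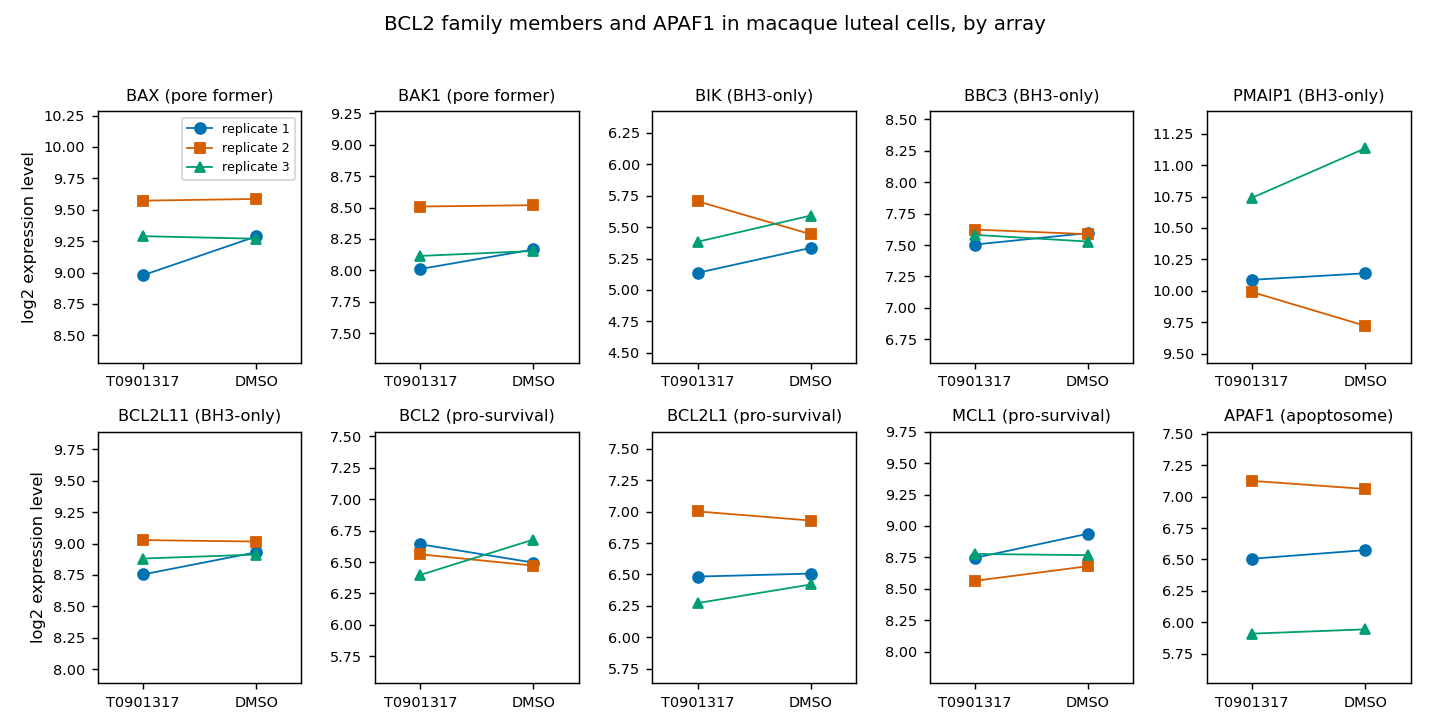
Log2 expression level (vertical axis, each panel 2 log2 units tall) of the representative probe set of each of the 10 genes with T0901317 and with DMSO (horizontal axis). Symbols are single arrays and lines join the arrays of a replicate; the replicates lie far apart for PMAIP1 and APAF1, and all 6 arrays of BBC3 lie within 0.12.

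Among pro-survival genes, BCL2 had 6.64, 6.56 and 6.40 with T0901317 and 6.50, 6.47 and 6.68 with DMSO. BCL2 was higher with T0901317 in replicates 1 and 2 and lower in replicate 3 (0.15, 0.09 and -0.28), for a mean of -0.02 ± 0.12. Without replicate 3 the change was 0.12. MCL1, a short-lived protein, was read by 2 probe sets. Its representative, on a probe set whose design allows matches to related transcripts, had 8.75, 8.56 and 8.78 with T0901317 and 8.94, 8.68 and 8.77 with DMSO, a change of -0.10 ± 0.09. The other probe set of MCL1 had -0.12 ± 0.12. Each was below 0 in 2 of 3 pairs, and the exception was pair 3 for the first and pair 1 for the second.

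BCL2L1, which encodes BCL-XL, gave different answers by probe set. Its representative (MmugDNA.12133.1.S1_s_at) had 6.48, 7.001 and 6.27 with T0901317 and 6.51, 6.93 and 6.42 with DMSO, a change of -0.03 ± 0.11. The other 3 probe sets of BCL2L1 had 0.17 ± 0.12, 0.11 ± 0.16 and 0.03 ± 0.14. These positive means came largely from pair 3, where the same 3 probe sets differed by 0.39, 0.62 and 0.34 while the representative differed by -0.15. In pair 3 the 3' minus 5' level of the controls also differed by -0.59 between T0901317 and DMSO, and its part in these values was not tested. With that measure as a covariate the changes of the 4 probe sets lay between -0.06 and 0.09, and none was called with or without it. That fit estimates a further term from the same 6 arrays and is no test of a cause.

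APAF1, the scaffold of the apoptosome, was read by 3 probe sets. Its representative (MmuSTS.3465.1.S1_at) had 6.51, 7.13 and 5.91 with T0901317 and 6.57, 7.06 and 5.94 with DMSO. Each treated culture lay within 0.07 of its vehicle culture, for a change of -0.01 ± 0.11, while the highest and lowest replicates lay 1.17 apart. The other probe sets of APAF1 had 0.10 ± 0.12 and 0.06 ± 0.12, and the dimmer of them was below the dim reference on all 6 arrays.

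**Figure D2:**
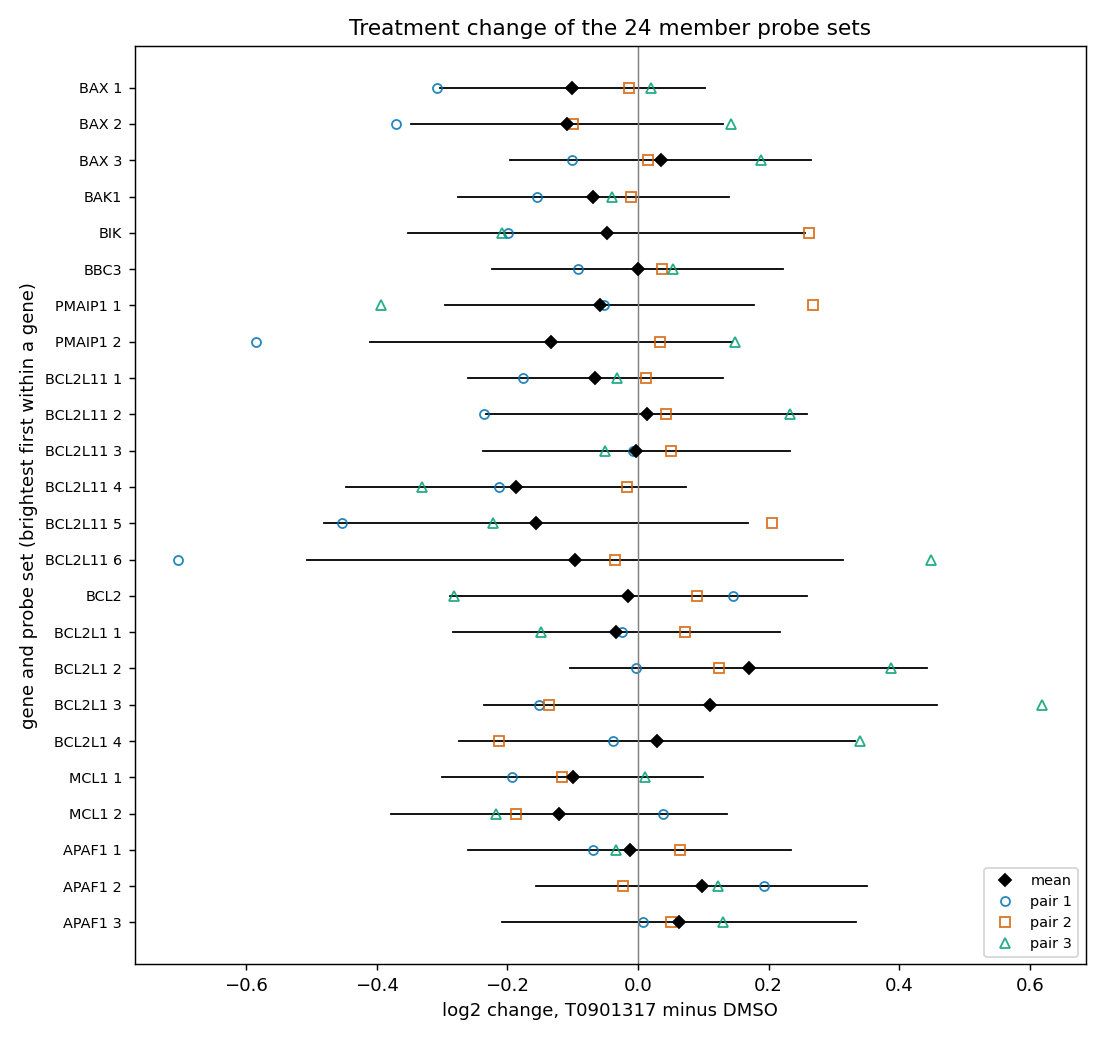
Log2 change, T0901317 minus DMSO (horizontal axis), of the 24 probe sets (vertical axis, numbered within a gene from the highest mean level). Open symbols are the 3 pairs, diamonds the mean and lines limma's 95% interval; every line crosses 0.

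The representatives of all 10 genes had means below 0, from -0.10 to -0.00064. Over all named genes 58.6% had a representative below 0, and the median was -0.05 for the 10 genes and -0.02 for all named genes. The count moved with the replicates used. Without replicate 1, 6 of the 10 were below 0, against 50.0% of named genes, and without replicate 3, 6 of the 10, against 62.3%. Without replicate 2 all 10 were, against 57.3%, with a median of -0.09. With quantile normalization or cyclic loess 9 of 10 were below 0, and 8 of 10 with the 3' minus 5' covariate. By pair, 9, 3 and 7 of the 10 genes were below 0 in pairs 1, 2 and 3, against 63.7%, 54.4% and 46.8% of named genes. Of the 24 probe sets 17 were below 0, against 48.5% of all, with a median of -0.04. Without replicate 1 only 9 were below 0 and the median was 0.02. By pair the count was 20, 10 and 11 of 24, against 50.0%, 52.7% and 46.5% of all probe sets.

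The balance between the sides of the family was followed within pairs. The median change of the 3 pro-survival genes was -0.02, 0.07 and -0.15 in pairs 1, 2 and 3, and that of the 6 pro-death genes (BAX, BAK1 and the BH3-only genes) was -0.17, 0.02 and -0.04. The pro-survival median minus the pro-death median was therefore 0.14, 0.05 and -0.11. The sign differed between pairs, and the mean of 0.03 ± 0.13 (SD, n = 3 pairs) was smaller than the spread between pairs. No test was made of this score. Each pro-survival gene was also set against each pro-death gene by representative probe sets, as the difference of their changes. Of these 18 gene pairs, 17 had both signs among the replicate pairs. The exception was MCL1 against BBC3, where the difference was -0.10, -0.15 and -0.04 in pairs 1, 2 and 3. It rests on the representative of MCL1, whose design allows matches to related transcripts. In pair 1 the second probe set of MCL1 changed by 0.04, against -0.09 for BBC3, so the difference there had the other sign. MCL1 against PMAIP1, whose product binds chiefly to MCL1, gave -0.14, -0.38 and 0.40. These values depend on the probe set of PMAIP1. Its second probe set differed by -0.58, 0.03 and 0.15, while the representative of MCL1 differed by -0.19, -0.12 and 0.01. Against that second probe set MCL1 thus lay higher in pair 1 and lower in pair 3.

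**Figure D3:**
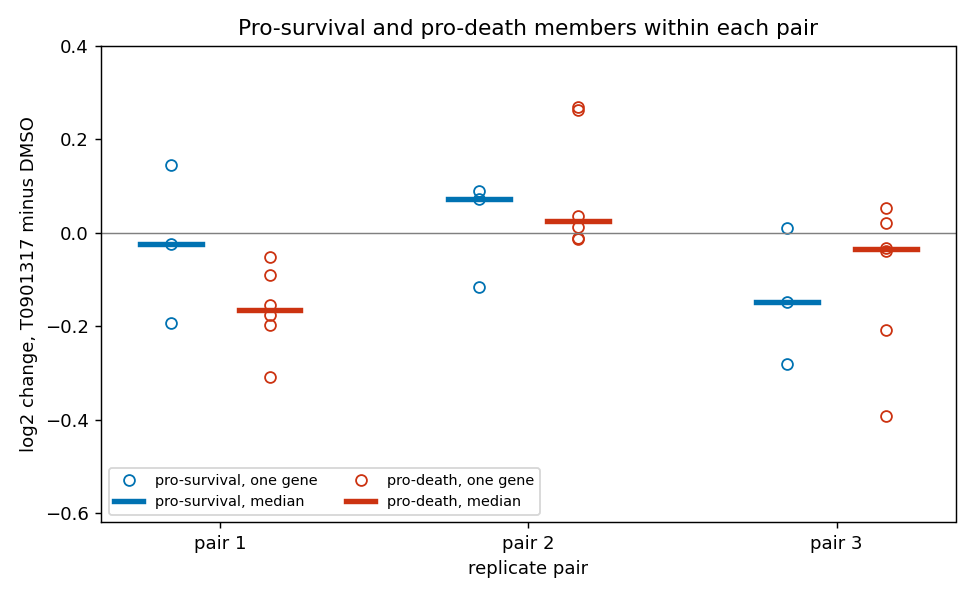
Log2 change, T0901317 minus DMSO (vertical axis), of the 3 pro-survival and 6 pro-death genes in each replicate pair (horizontal axis). Open circles are genes by their representative probe set and bars are medians; the pro-survival bar is the higher in pairs 1 and 2 and the lower in pair 3.

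The replicates were also compared, each by its T0901317 and DMSO arrays. In limma's F test of the replicate terms 12 of the 24 probe sets differed at an adjusted p under 0.05, or 50%, close to the 40.2% of all probe sets that did. They belong to BAX, BAK1, PMAIP1, BCL2L11, BCL2L1 and APAF1. No probe set of BIK, BBC3, BCL2 or MCL1 passed, though the second of MCL1 lay just over the threshold (limma adjusted p = 0.052). Without replicate 1, 13 of the 24 passed, against 41.3% of all probe sets. Without replicate 2, 5 passed, against 28.6%, and without replicate 3, 13 passed, against 17.1%.

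The lowest adjusted p-values were those of the representatives of APAF1 and PMAIP1. For APAF1 the replicate levels were 6.54, 7.09 and 5.93 (limma adjusted p = 1.9e-04) and for PMAIP1 they were 10.11, 9.86 and 10.94 (limma adjusted p = 1.7e-04). Replicate 2 was thus the highest for this probe set of APAF1 and the lowest for this one of PMAIP1. The second probe set of PMAIP1 had 8.78, 9.28 and 9.49, with replicate 1 the lowest (limma adjusted p = 0.0088). The second probe set of APAF1 had 6.14, 6.68 and 6.53, so replicate 2 was again the highest but replicate 1 and not 3 the lowest. The representative of BCL2L1 had 6.49, 6.97 and 6.35 in replicates 1, 2 and 3 (limma adjusted p = 0.010).

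Replicate 2 was the highest for 10 of the 12 probe sets that differed, under the deposited scaling and under each of the 3 others tried. Among all probe sets that differed, 31.1% were highest in replicate 2. The other 2 of the 12 are those of PMAIP1, highest in replicate 3. The probe sets of a gene share their source, so these are not independent counts. Controls and markers differed between the replicates too. The 3' minus 5' difference was lowest in replicate 2 and highest in replicate 3. The median level of the 8 measured macrophage markers of 10 listed was 7.91, 9.37 and 9.09 with T0901317 and 8.13, 9.28 and 9.08 with DMSO in replicates 1, 2 and 3. Their summed level was 62.6, 72.2 and 73.0 with T0901317 and 63.4, 72.5 and 73.2 with DMSO, so replicate 2 had the highest median and replicate 3 the highest sum. Of the 8 markers, 5 were highest in replicate 3 with T0901317 and 6 with DMSO, and none was below the dim reference on all arrays. The medians of fibroblast (4 measured of 5) and endothelial markers (6 of 6) were also highest in replicate 2 in both groups. Those of fibroblasts were 10.97, 11.34 and 10.31 with T0901317 and 11.16, 11.45 and 10.21 with DMSO. Steroidogenic (5 measured of 8) and pericyte (3 of 6) medians were highest in replicate 1. Those of T and NK cells (2 of 5) and of neutrophils and blood (5 of 5) were highest in replicate 3. The genes of a list did not all follow its median. In both groups HSD3B2 and INHA were highest in replicate 1, but STAR and FDX1 in replicate 2. Likewise CNN1 and MYH11 were highest in replicate 1, but CSPG4 in replicate 2. Of the neutrophil and blood markers PPBP was highest in replicate 2 and the others in replicate 3. The part of RNA quality or of any cell type in the replicate differences was not tested.

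**Figure D4:**
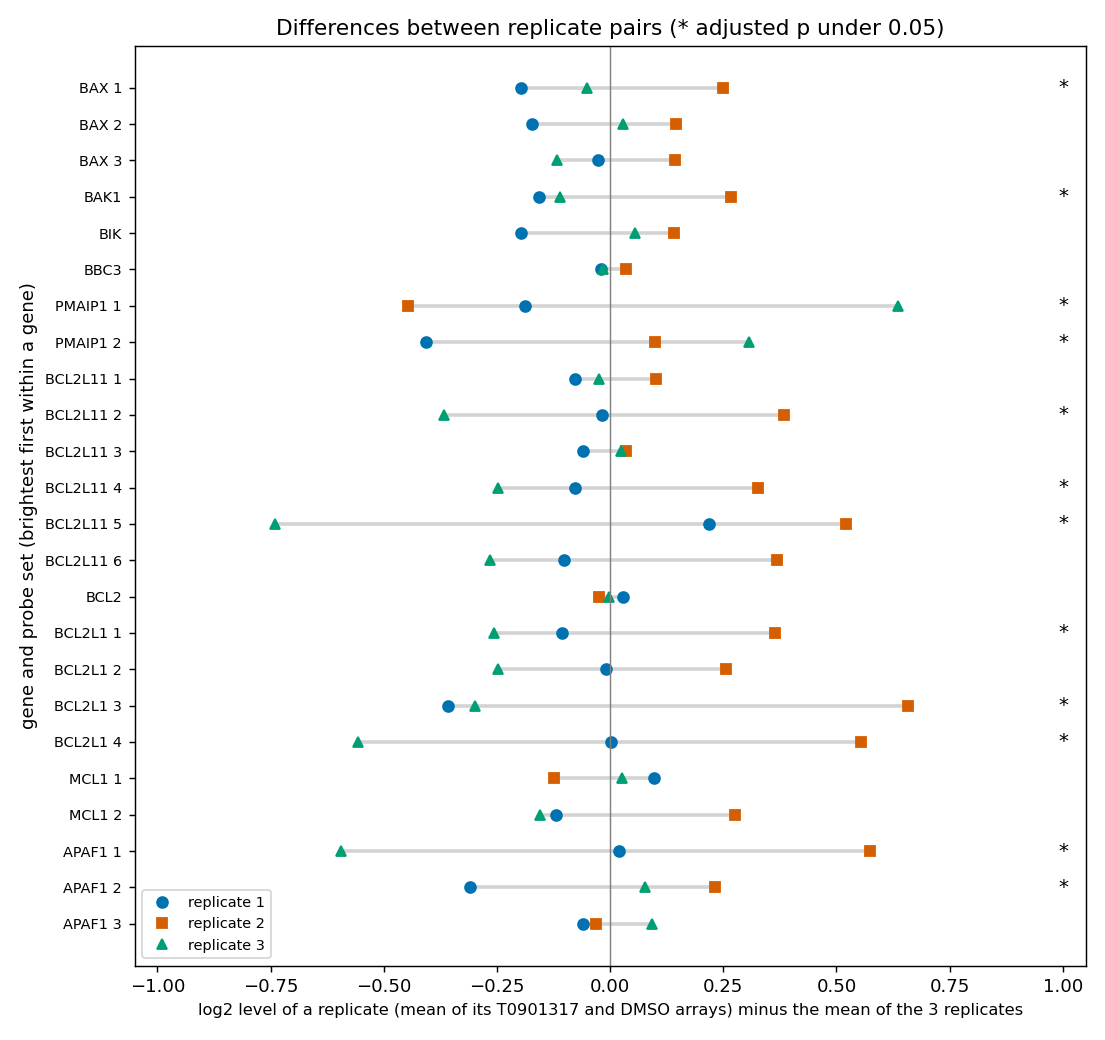
Log2 level of each replicate, as the mean of its T0901317 and DMSO arrays, minus the mean of the 3 replicates (horizontal axis) for the 24 probe sets (vertical axis). Stars mark the 12 that differed between replicates; replicate 2 lies to the right in most, and replicate 3 in both probe sets of PMAIP1.

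For the 3 genes whose representatives had the widest range over the arrays, the named genes with the most similar profile were sought among 11737 genes above the dim reference on all arrays. Closest to PMAIP1 were VWA3B, ATP5PB and LOC677720 (Pearson r from 0.995 to 0.997 over 6 arrays). Closest to APAF1 were PPM1A, LPGAT1 and VMP1 (r = 0.999 for each), and closest to BCL2L1 were KLHL24, TXNDC17 and TPD52 (r from 0.995 to 0.997). With 6 arrays in 3 pairs that share their replicate, such values are a description of these arrays only.

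The rest of the family gave no call either. Of 16 further family genes listed, 9 were measured, and 0 rose and 0 fell in limma's test, with 1 at an unadjusted p under 0.05. That gene was BOK, a pore-forming relative of BAX and BAK1. Its representative had 7.999, 8.22 and 8.24 with T0901317 and 7.82, 7.96 and 7.70 with DMSO. The lowest treated culture lay just above the highest vehicle culture, so the groups did not overlap. Over all probe sets, 2.45% had groups that did not overlap and 3.72% had an unadjusted limma p under 0.05. The change of BOK was 0.33 ± 0.11 (limma adjusted p = 1.00), and its second probe set had -0.0060. BNIP2, a partner of BCL2, had the next largest change, -0.17 ± 0.12, while its other probe set had 0.03. BCL2A1, a pro-survival gene of white blood cells, was singled out after its values were seen. BCL2A1 had 9.27, 11.18 and 10.48 with T0901317 and 9.16, 10.98 and 10.39 with DMSO, a change of 0.13 ± 0.08 (limma adjusted p = 1.00). Its pairs differed by 0.11, 0.20 and 0.09. Such a common sign was seen for 3 of the 9 genes and for 23.2% of all probe sets. The replicates of BCL2A1 lay further apart than its groups, with replicate 1 the lowest (limma's F test of the replicate terms, adjusted p = 3.0e-07).

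Of 15 genes of the apoptosome and caspase step 7 were measured, and 0 rose and 0 fell. Their median change was -0.07. By representative, the largest were those of HTRA2, a mitochondrial protease that binds caspase inhibitors once released (-0.08 ± 0.10), and of BIRC3. BIRC3 is a ubiquitin ligase of the inhibitor of apoptosis family (-0.07 ± 0.07). Over their probe sets the changes ran from -0.18 to 0.03 for HTRA2 and from -0.14 to -0.05 for BIRC3. Of 9 mitochondrial partners and enzymes that turn over MCL1 6 were measured, and 0 rose and 0 fell, with a median of -0.01. HUWE1, a ubiquitin ligase of MCL1, had -0.08 ± 0.09 and VDAC1, a channel of the outer membrane, had 0.05 ± 0.07. Over their probe sets the changes ran from -0.09 to 0.13 for HUWE1 and from -0.03 to 0.05 for VDAC1.

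Of 10 regulators upstream of the family 7 were measured, and 0 rose and 0 fell, with a median of -0.09. TP73, a relative of p53, had 0.13 ± 0.11, and its other probe set had -0.09. CDKN1A, a cell cycle inhibitor and target of p53, had -0.10 ± 0.07. DDIT3, a transcription factor of the stress response of the endoplasmic reticulum, was singled out after its values were seen. DDIT3 had 8.57, 8.58 and 11.35 with T0901317 and 8.74, 8.60 and 11.42 with DMSO. Replicate 3 stood far above the others in both groups, while the treatment change of DDIT3 was -0.09 ± 0.08. PMAIP1 was also highest in replicate 3, by less, and its second probe set only slightly so (8.78, 9.28 and 9.49 by replicate). Other regulators on the list had other orders. STAT3 was lowest in replicate 3, CDKN1A was highest in replicate 2 and MDM2 in replicate 1. A link between DDIT3 and PMAIP1 was not tested.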

How the data were processed

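Total RNA from 6 luteal cell cultures was hybridised to 1 array each. Per the submitters' processing notes the deposited log2 values were made with RMA, whose version and scope over the arrays are not given in the sources used here. Values ran from 1.81 to 14.7 for 52865 probe sets. Symbols came from the platform annotation supplied. The RefSeq gene table for rhesus macaque held the gene numbers of all 24 member probe sets and changed 0 symbols. Among the probe sets tested, 27449 had no symbol and 361 had several. Listed genes beyond those called measured may thus still have had probe sets on the array. No sequences or coordinates were used here.

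After 99 control probe sets were left out, 52766 were fitted with limma 3.58.1 in R 4.3.3: treatment and replicate block as terms, then eBayes (with a variance trend). Two-sided p-values were adjusted by Benjamini-Hochberg over all probe sets, with a threshold of 0.05. The dim reference is the 95th percentile of the mean levels of 42 Bacillus control probe sets. Flipping the signs of 3 pairs allows no exact two-sided p below 0.25, and limma's p-values rest on a spread pooled over probe sets. The number of arrays limits the precision.

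The pairing comes from the design text. Deviations from the group mean correlated at 0.658, 0.813 and 0.830 between arrays of the same number, and at 0.197 at most between other arrays of the 2 groups. At most 0.327% of values were identical between any 2 arrays. Scan dates were not used here, so no batch was tested.

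Members and lists were chosen with earlier results of these data known. Named genes are all members, the 2 largest changes of each pathway list, MYLIP, marker genes and the 3 genes most like each of 3 members; BCL2A1 and DDIT3 were added with their values known. On data simulated with independent errors the same fit recovered large changes, missed most small ones and made a share of false calls above the threshold. The counts of calls over all probe sets may thus be too high, by an amount that this simulation cannot give, since real arrays can share errors. Alternatives were no replicate block, other eBayes settings, quantile, median and cyclic loess scaling, a dim filter, a 3' minus 5' covariate, and leaving out each replicate. Leaving out replicates in the replicate test was added after seeing the data.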

Additional observations from a re-analysis of the deposited data

How the results depend on the processing

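Under all 11 alternatives 0 member probe sets were called. At an unadjusted p under 0.05 there were 3 of 24 with the 3' minus 5' covariate (the second probe sets of BAX and PMAIP1 and the dimmest of BCL2L11) and 3 without replicate 3, and 0 otherwise. The count over all probe sets was 45 with the pairing and 0 without the replicate block, 11 without the trend, 246 with the covariate, 27 with quantile normalization and 27 with cyclic loess. Leaving out 1 replicate gave 35 to 328. Of the calls 32 were higher and 13 lower; with quantile normalization 22 and 5, with cyclic loess 24 and 3. Signs of the changes of the representative probe sets were unstable. BBC3 had 0.038 with quantile normalization and 0.027 with cyclic loess, and PMAIP1 had 0.032 and BCL2 0.075 with the covariate. Without 1 replicate BAX ran from -0.16 to 0.0035, BIK from -0.20 to 0.032, BBC3 from -0.027 to 0.045, PMAIP1 from -0.22 to 0.11, BCL2 from -0.10 to 0.12, BCL2L1 from -0.086 to 0.024 and APAF1 from -0.051 to 0.015. The representatives of BAK1, BCL2L11 and MCL1 stayed below 0 in all 11. The pro-survival minus pro-death change ran from -0.03 to 0.10 over 8 alternatives. The replicate test called 5 to 13 member probe sets and 9045 to 21815 of all when 1 replicate was left out, and 11 to 16 members otherwise. The cause of these shifts was not tested. Probe sets near the dim reference, such as the dimmest of APAF1 and BCL2L11, limit what those values can show.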
